A study of Mus musculus with 6 samples.

Results

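Adult neurogenesis was examined in whole-brain RNA through 10 genes that mark its steps, taken by symbol from a list of stem cell, progenitor, immature neuron and neuronal differentiation genes. Each file of read counts holds 60354 features, and each of the 10 symbols matched 1 of them. All 10 genes passed the filter on low counts, which kept 18580 features. Brains came from male C57BL/6NCrSlc mice that were 16 weeks old when the diets began. Control mice 2, 5 and 10 were fed a modified AIN-93M diet for 16 weeks, and PLDP mice 17, 22 and 26 were fed the same type of diet with 20% protease-treated porcine liver decomposition product (PLDP) and matched calories. All 6 mice went through the behavioral tests after the feeding period, without PLDP, and their brains were taken afterwards. No gene was altered in either group, and each library was made from 1 brain. The comparison asks whether RNA levels in the brain differed between the diets.

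In the adult mouse brain, new neurons are made mainly in the dentate gyrus of the hippocampus and along the wall of the lateral ventricles, from where they move to the olfactory bulb. Stem cells there carry Sox2, dividing progenitors use cyclin D2 and, in the dentate lineage, Eomes, and young neurons carry Dcx, Sox4 and Sox11. Neurod1, Neurod2 and Prox1 are factors of neuronal differentiation. Most of the genes named here are also used outside the neurogenic zones. Sox2 is made in astrocytes, Eomes in projection neurons of the olfactory bulb, Neurod1 in cerebellar granule cells, and Neurod2 and Neurod6 in excitatory neurons of the cortex and hippocampus. In whole-brain RNA a lower level of a gene can come from fewer cells of a type or from less RNA in each cell, and these cannot be told apart.

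Totals were between 18797061 and 23938729 counts per mouse, and mitochondrial genes took between 2.53% and 2.80% of them. The 10 defining genes of brain tissue, among them Snap25, Gad1 and Mbp, were counted in every mouse. By 1 of 2 measures the library of PLDP mouse 17 differed most from the other 5. The median correlation of its log2 CPM with the other libraries was 0.992, and those of the other 5 were 0.991 or 0.992. The chi-square per degree of freedom of the counts of PLDP mouse 17 against another library was between 4.48 and 5.33. For the other 10 pairs it was between 2.36 and 4.47, where counting noise alone gives about 1.

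At an unadjusted p under 0.05, 5 of the 10 genes were called, with 4 higher and 1 lower under PLDP. Over all features tested, 8.60% were called, 4.91% higher and 3.69% lower. The 10 genes were chosen with earlier results of these data known, so this comparison is not independent of the values. The genes called higher were Sox11, Eomes, Ccnd2 and Neurod2, and the gene called lower was Sox2. After Benjamini-Hochberg adjustment over all features, none of the 10 genes had an adjusted p under 0.05 by the quasi-likelihood test of edgeR, where 0.0323% of all features did, and DESeq2 and limma voom also gave 0. At an unadjusted p under 0.05, DESeq2 called 3 of the genes and limma voom 5. The number called without PLDP mouse 17 was also 5, all of them higher, because Sox4 was called and Sox2 was not. It was 5 without control mouse 10, 3 without control mouse 2 or PLDP mouse 22 or 26, and 2 without control mouse 5. Over all features the number called was 1598 with all mice and 2350 without PLDP mouse 17, of which 1309 were higher. The differences were small, with a largest absolute log2 fold change of 0.28. The median log2 fold change of the 10 genes was 0.062, against -0.00062 over all features. With 1 mouse left out it was between 0.024 (without PLDP mouse 22) and 0.137 (without PLDP mouse 17). In 2 of the genes, Sox11 and Neurod2, no PLDP mouse overlapped the range of the control mice, which held for 14.2% of all features.

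The sequences upstream of 4 of the called genes are shown, 3 that were higher and 1 that was lower, because the bHLH factors among the 10 genes bind E-boxes. Each run is the 250 bases before the start of the gene in RefSeq (build GRCm38.p6), written 5′ to 3′ on the strand of the gene, with E-boxes (CANNTG, which reads the same on both strands) in capitals.
Sox11, chr12:27342719-27342968, minus strand: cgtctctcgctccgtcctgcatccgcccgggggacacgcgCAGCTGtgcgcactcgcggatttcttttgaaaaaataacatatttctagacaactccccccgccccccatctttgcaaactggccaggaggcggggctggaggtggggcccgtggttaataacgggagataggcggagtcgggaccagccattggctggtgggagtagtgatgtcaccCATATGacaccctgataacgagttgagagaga
Neurod2, chr11:98329646-98329895, minus strand: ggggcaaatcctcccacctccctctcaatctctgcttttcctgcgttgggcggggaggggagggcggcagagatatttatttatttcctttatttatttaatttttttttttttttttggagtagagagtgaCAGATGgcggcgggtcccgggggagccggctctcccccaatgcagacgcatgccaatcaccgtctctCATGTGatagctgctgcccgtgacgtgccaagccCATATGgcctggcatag
Eomes, chr9:118477939-118478188, plus strand: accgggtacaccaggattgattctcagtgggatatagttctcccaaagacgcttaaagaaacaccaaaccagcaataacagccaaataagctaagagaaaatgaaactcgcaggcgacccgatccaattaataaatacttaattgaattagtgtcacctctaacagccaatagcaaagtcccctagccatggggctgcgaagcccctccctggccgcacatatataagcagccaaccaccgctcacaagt
Sox2, chr3:34649745-34649994, plus strand: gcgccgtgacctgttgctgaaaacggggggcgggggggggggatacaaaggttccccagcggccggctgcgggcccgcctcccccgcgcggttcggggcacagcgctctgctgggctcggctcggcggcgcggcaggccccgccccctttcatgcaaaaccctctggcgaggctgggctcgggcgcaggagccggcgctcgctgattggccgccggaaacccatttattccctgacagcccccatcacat

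The window of Neurod2 held 3 E-boxes and that of Sox11 held 2, whereas those of Eomes and Sox2 held none. RefSeq windows were matched for 9 of the 10 genes, with 11 windows in all, and 6 of the windows held at least 1 E-box. Prox1 and Neurod6 had 2 E-boxes in a window, and Sox4 and Neurod1 had 1. Of all 32851 windows of this length, 66.2% held an E-box. The core motif bound by Sox factors (AACAAT, or ATTGTT on the other strand) was in 0 of the 11 windows and in 9.42% of all windows. A TATA box (TATAAA, or TTTATA on the other strand) was in 3 of the 11, both windows of Dcx and 1 of Prox1, and in 12.4% of all windows. The windows of Dcx overlap and hold the same box, which is thus counted more than once. The GC content ranged from 41.6% in a window of Dcx to 72% in that of Sox2. Such matches describe the letters in these windows and are not evidence of binding.

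Levels of different genes were compared as CPM (read counts relative to the size of each library, after TMM scaling) per kilobase of annotated exon. Neurod1 had the highest level, 24.9 ± 2.01 CPM per kilobase (SD, n = 6 mice), followed by Neurod2 with 24.8 ± 1.65, and the values of these genes overlapped between mice. Sox2 with 19.6 ± 1.38 and Neurod6 with 17.2 ± 0.90 also overlapped each other, and both lay below Neurod1 and Neurod2 in all mice. Sox4, Ccnd2 and Eomes formed a middle group with 5.89 ± 0.63, 5.32 ± 0.59 and 4.66 ± 0.63, in which neighbors overlapped. Prox1 with 3.53 ± 0.20, Dcx with 2.79 ± 0.26 and Sox11 with 1.80 ± 0.23 followed, each separated from the next in every mouse. The genes that cortical, hippocampal or cerebellar neurons and astrocytes also use had the highest levels, and the immature neuron genes Dcx and Sox11 the lowest.

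**Figure D1:**
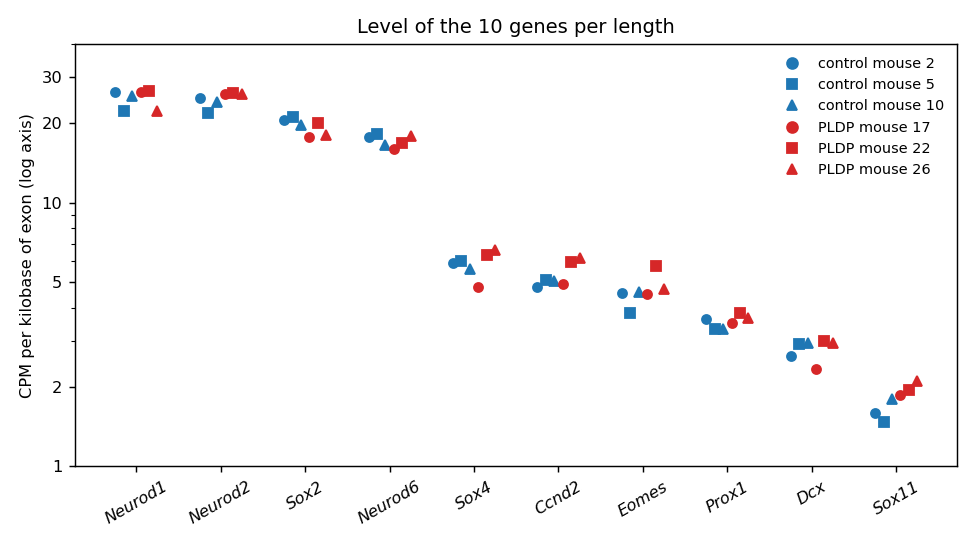
TMM-scaled CPM per kilobase of annotated exon (log axis) of the 10 genes in each mouse, ordered by the mean; blue points are control mice and red points PLDP mice. Neurod1, Neurod2, Sox2 and Neurod6 lie between 16.0 and 26.6, and the other 6 genes between 1.47 and 6.59.

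The length used mattered for the order. With the longest annotated transcript in place of all exons, Ccnd2 had 7.90, Eomes 5.43, Dcx 3.89 and Prox1 3.75 CPM per kilobase. Ccnd2 then lay above Sox4, and Dcx above Prox1. Sox2, Sox4 and Sox11 each have a single annotated exon, and the Neurod genes have 2.

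The first group of genes is that of stem cells and progenitors. Sox2, an HMG-box transcription factor that keeps neural stem cells undifferentiated (ENSMUSG00000074637, chromosome 3 of GRCm38 from 34650405 to 34652461), had 42.4, 43.5 and 40.7 CPM in control mice 2, 5 and 10 and 36.5, 41.1 and 37.1 CPM in PLDP mice 17, 22 and 26. PLDP mice 17 and 26 were below all control mice, and PLDP mouse 22 was within their range. The mean fell from 42.2 ± 1.42 CPM in the controls to 38.3 ± 2.51 with PLDP (SD, n = 3 per diet). Sox2 had a log2 fold change of -0.14 ± 0.06 (SE), which edgeR's test gave an adjusted p of 0.532 and an unadjusted p of 0.0342. Its call was lost with DESeq2 (unadjusted p = 0.0617) and without control mouse 2 (0.0791), control mouse 5 (0.116), PLDP mouse 17 (0.101) or PLDP mouse 26 (0.102).

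Sox2 lies within Sox2ot, a long noncoding RNA gene on the same strand whose exons share no base with it. Sox2ot had 25.6, 28.9 and 27.0 CPM in the control mice and 24.3, 24.2 and 25.6 CPM in the PLDP mice, and its log2 fold change was -0.14 (unadjusted p = 0.053 in edgeR), so it did not pass the threshold. It did pass with library size only (0.0499), without control mouse 2 (0.0313, log2 fold change -0.18) and without PLDP mouse 26 (0.0478). Astrocytes, the other main source of Sox2, were described by 11 marker genes, of which 2 were called lower, Fgfr3 and Aqp4. Fgfr3 was called in 6 of 6 fits with 1 mouse removed, and the call of Aqp4 was lost without control mouse 10 or PLDP mouse 17 or 26. Their summed level was between 4170 and 4260 CPM in the control mice and between 4172 and 4259 in the PLDP mice. Of 10 markers of oligodendrocyte precursors, Olig2 and Sox10 were called lower, in 4 and 3 of 6 fits with 1 mouse removed. The log2 fold change was above 0 for 6 of these 10 markers, with a median of 0.011. The summed level of the 10 markers was between 673.7 and 703.7 CPM in the controls and between 659.2 and 705.3 CPM with PLDP. Both genes are also used by mature oligodendrocytes, and of 10 markers of those cells 4 were called lower and 0 higher. Their log2 fold changes had a median of -0.089, and 0 of the 10 were above 0. Their summed level was between 5382 and 5784 CPM in the control mice and was 5632, 5010 and 5058 CPM in PLDP mice 17, 22 and 26, so PLDP mouse 17 lay within the control range. None of the genes on these lists was at 0 in all mice, and their part in the difference of Sox2 was not tested.

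Ccnd2 encodes cyclin D2, which drives progenitors through the G1 phase (ENSMUSG00000000184, chromosome 6 from 127125162 to 127152193). It had 45.0, 47.7 and 47.3 CPM in the control mice and 46.1, 56.0 and 57.9 CPM in the PLDP mice. PLDP mice 22 and 26 were above all control mice, and PLDP mouse 17 was within their range. The mean rose from 46.7 ± 1.49 CPM in the controls to 53.4 ± 6.34 with PLDP (SD, n = 3 per diet). The log2 fold change was 0.19 ± 0.07 (SE), which edgeR's test gave an adjusted p of 0.448. Its unadjusted p of 0.0157 in this test became 2.35e-05 without PLDP mouse 17, with a log2 fold change of 0.29. The call was lost without control mouse 2 (0.0679), PLDP mouse 22 (0.0709) or PLDP mouse 26 (0.102, log2 fold change 0.13).

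The other D-type cyclins differed little between the diets. Ccnd1 had a mean of 40.7 CPM in both diets, with an unadjusted p of 0.981 in edgeR's quasi-likelihood test. Ccnd3 had means of 32.7 and 33.0 CPM (unadjusted p = 0.879 in this test). Whether Ccnd2 differed from them in its response was not tested.

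Eomes, also called Tbr2, is a T-box factor of intermediate progenitors and of olfactory bulb projection neurons (ENSMUSG00000032446, chromosome 9 from 118478212 to 118486132). It had 18.9, 15.8 and 19.1 CPM in the control mice and 18.7, 23.9 and 19.6 CPM in the PLDP mice. PLDP mouse 22 was the highest and control mouse 5 the lowest, and the other 4 mice lay between 18.7 and 19.6 CPM. The mean rose from 17.9 ± 1.82 CPM in the controls to 20.8 ± 2.76 with PLDP (SD, n = 3 per diet). The log2 fold change was 0.22 ± 0.10 (SE), which edgeR's test gave an adjusted p of 0.559. The unadjusted p was 0.0406, and the call was lost without control mouse 5 (0.214, log2 fold change 0.13), without PLDP mouse 22 (0.326, log2 fold change 0.10) and with DESeq2 (0.0589). Of the 11 other olfactory bulb markers, 0 were called higher and Synpr was called lower in edgeR's test, and their summed level was between 574.5 and 601.2 CPM in the control mice and between 535.1 and 589.3 in the PLDP mice. The log2 fold change of Synpr went from -0.16 to -0.09 without PLDP mouse 17, and its call was lost (unadjusted p = 0.0939 in edgeR). None of these markers was at 0, and their part in the Eomes values was not tested.

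**Figure D2:**
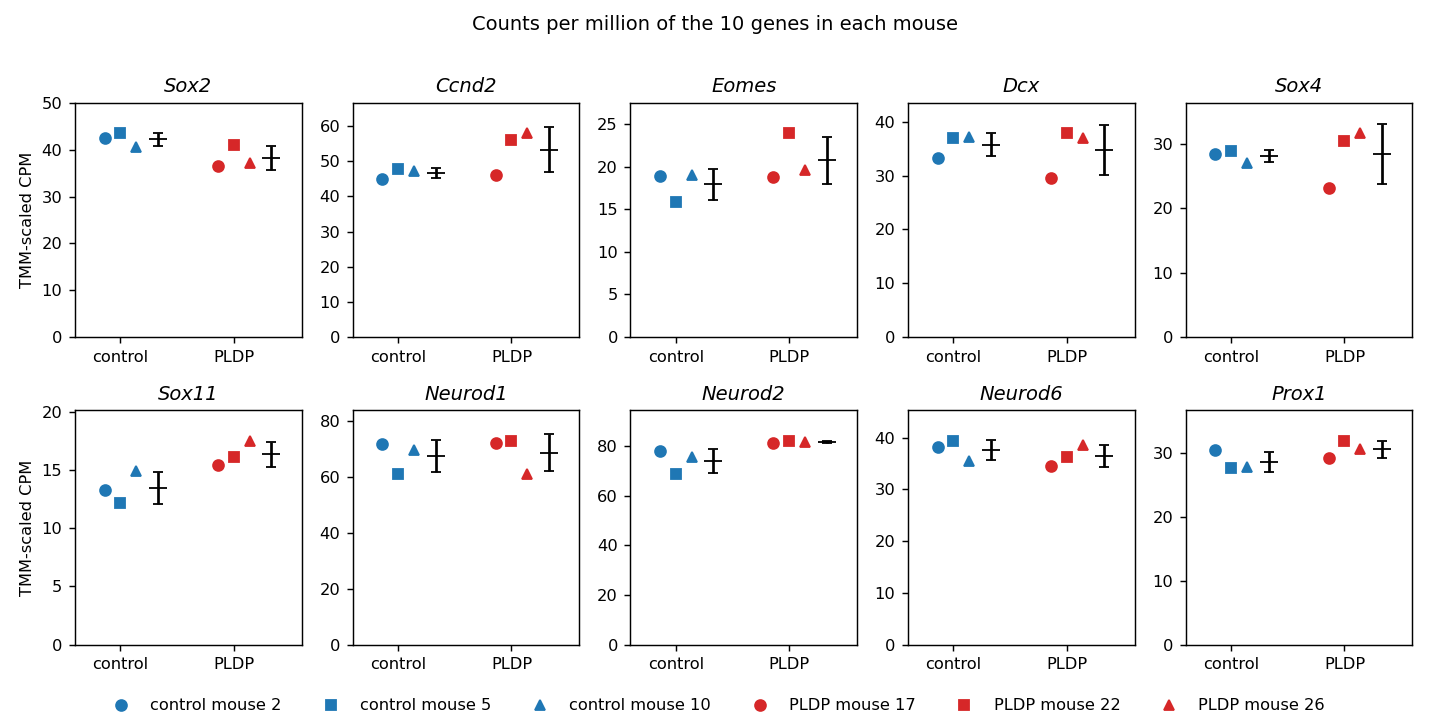
TMM-scaled CPM of the 10 genes in each mouse, by diet; blue symbols are control mice, red symbols PLDP mice, and black bars show the mean and SD of 3 mice. Sox11 and Neurod2 have every PLDP mouse above the control mice, while PLDP mouse 17 is the lowest of the 6 mice in Dcx, Sox4, Sox2 and Neurod6.

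Of the 3 genes of immature neurons, Sox11 was called and Sox4 and Dcx were not. The log2 fold changes without PLDP mouse 17 were 0.32 for Sox11, 0.14 for Sox4 and 0.07 for Dcx. Without PLDP mouse 22 they were 0.29, -0.05 and -0.11, and without PLDP mouse 26 they were 0.23, -0.07 and -0.09. Sox11, a transcription factor of early neuronal differentiation (ENSMUSG00000063632, chromosome 12 from 27334264 to 27342574), had 13.3, 12.2 and 14.9 CPM in the control mice and 15.4, 16.1 and 17.5 CPM in the PLDP mice. All PLDP mice were above all control mice, with a gap of 14.9 to 15.4 CPM between the nearest. The mean rose from 13.5 ± 1.38 CPM in the controls to 16.4 ± 1.07 with PLDP (SD, n = 3 per diet), a change of 21.4% with a 95% interval from 6.20% to 38.8%. The log2 fold change of Sox11 was 0.28 ± 0.09 (SE), with an adjusted p of 0.368 in edgeR, and its p before adjustment, 0.00716, was the smallest of the 10 genes. Sox11 was called in 6 of 6 fits with 1 mouse removed, with log2 fold changes between 0.21 and 0.36, and in each of the 7 other settings.

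Sox11 was also the gene with the fewest reads, between 269 and 385 counts per mouse. Counting error alone gives a coefficient of variation of 5.93% at its mean count in the controls and 5.36% at that of the PLDP mice. The coefficients observed between mice were 10.2% and 6.51%.

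Sox4, the closest relative of Sox11 among the 10 genes (ENSMUSG00000076431, chromosome 13 from 28948919 to 28953713), was not called. It had 28.4, 28.9 and 27.0 CPM in the control mice and 23.1, 30.5 and 31.6 CPM in the PLDP mice. PLDP mouse 17 was below all control mice, and the other PLDP mice were above them. Its change over all mice was 0.91%, with a 95% interval from -11.8% to 15.5%. Without PLDP mouse 17 its log2 fold change was 0.14 with an unadjusted p of 0.0386 in edgeR's test. On the opposite strand, 2616 of the 4795 exon bases of Sox4 also belong to exons of Gm26735, a noncoding RNA gene that was not analysed here. Whether the reads were counted by strand is not given in the sources used here, so the values of Sox4 are uncertain to that extent.

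Sox12, the remaining member of this Sox group, was on one of the other lists and was called lower. It had 28.6, 27.5 and 29.1 CPM in the control mice and 25.2, 25.8 and 25.7 CPM in the PLDP mice, with all PLDP mice below all control mice. Its log2 fold change was -0.15 (unadjusted p = 0.029 in edgeR), and the call was lost with DESeq2 (0.072) and in 4 of 6 fits with 1 mouse removed, those without control mouse 2 or 10 or PLDP mouse 17 or 26. Differences in response among Sox4, Sox11 and Sox12 were not tested. Over the 17 Sox genes tested, a family looked up after the values of the 10 genes were seen, 2 were called higher (Sox5 and Sox11) and 3 lower (Sox2, Sox10 and Sox12). Of all features tested, 4.91% were called higher and 3.69% lower.

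Dcx, which encodes the microtubule-binding protein doublecortin of migrating young neurons (ENSMUSG00000031285, chromosome X from 143855842 to 143933311), was not called. It had 33.3, 36.9 and 37.1 CPM in the control mice and 29.5, 37.9 and 37.0 CPM in the PLDP mice. PLDP mouse 17 was the lowest of the 6 mice, and PLDP mouse 22 the highest. The means were 35.8 ± 2.15 and 34.8 ± 4.62 CPM (SD, n = 3 per diet), a change of -2.76% with a 95% interval from -13.8% to 9.65%. Without PLDP mouse 17 the log2 fold change of Dcx turned from -0.04 to 0.07 and still did not pass the threshold (unadjusted p = 0.29 from edgeR's test).

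**Figure D3:**
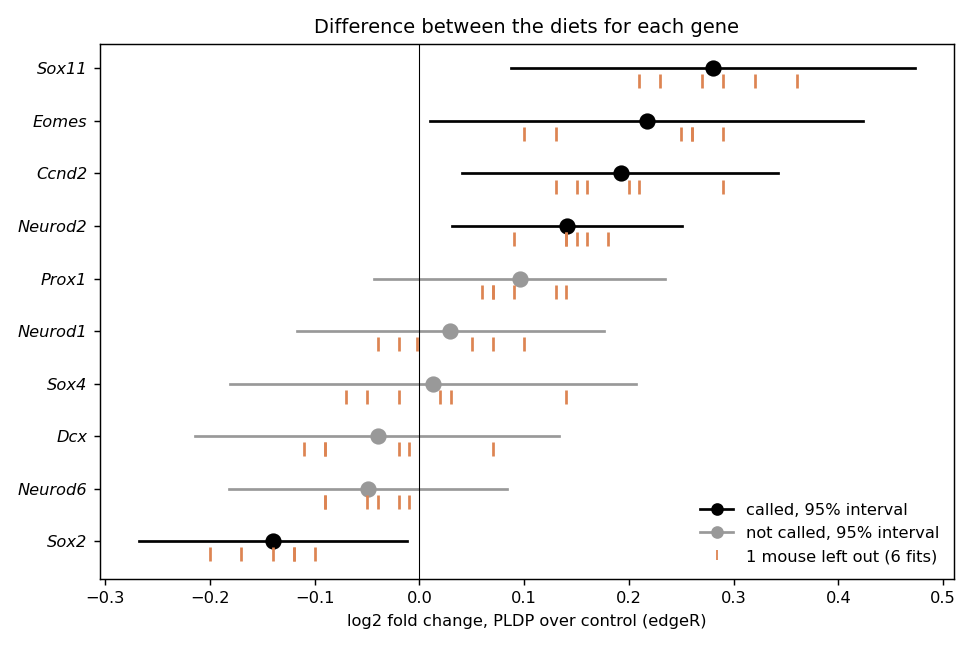
Log2 fold change (PLDP over control) of each gene with its 95% interval from edgeR; black marks called genes, gray marks genes not called, and orange ticks show the 6 fits that each left out 1 mouse. Sox11 lies between 0.21 and 0.36 in those fits, while the ticks of Dcx, Sox4 and Neurod1 fall on both sides of 0.

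Among the factors of neuronal differentiation, 1 of 4 was called. Neurod2, a bHLH transcription factor of excitatory neurons (ENSMUSG00000038255, chromosome 11 from 98325415 to 98329648), had 78.1, 68.5 and 75.5 CPM in the control mice and 81.3, 82.0 and 81.5 CPM in the PLDP mice. All PLDP mice were above all control mice, and the control mice spread more widely. The mean rose from 74.0 ± 4.93 CPM in the controls to 81.6 ± 0.36 with PLDP (SD, n = 3 per diet), a change of 10.3% with a 95% interval from 2.16% to 19.0%. Neurod2 had between 1511 and 1956 counts per mouse, at which counting error alone gives a coefficient of variation of 2.40% in the PLDP mice, so the 0.438% seen between these mice lies below that value. The log2 fold change was 0.14 ± 0.05 (SE), which edgeR's test gave an adjusted p of 0.448. The unadjusted p of 0.0152 became 0.12 without control mouse 5, with a log2 fold change of 0.09, and stayed under 0.05 in the other 5 fits that left out 1 mouse.

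Neurod6, a bHLH factor of pyramidal neurons in the cortex and hippocampus (ENSMUSG00000037984, chromosome 6 from 55677822 to 55681263), had 38.1, 39.3 and 35.5 CPM in the control mice and 34.4, 36.3 and 38.6 CPM in the PLDP mice. The diets overlapped, and the change of -3.35% had a 95% interval from -11.9% to 5.98%. Neurod1, a bHLH factor of granule cell differentiation (ENSMUSG00000034701, chromosome 2 from 79452521 to 79456751), had 71.5, 61.0 and 69.5 CPM in the control mice and 72.0, 72.7 and 61.0 CPM in the PLDP mice. 1 mouse of each diet was near 61.0 CPM and the other 4 lay between 69.5 and 72.7. The change of 2.06% had a 95% interval from -7.79% to 13.0%. Of the 100-base words in the transcripts of Neurod1, 3.92% also occur in transcripts of Cerkl, an overlapping gene on the same strand, whose counts were between 71 and 145 per mouse. Gm26755, which overlaps Neurod1 on the opposite strand, was not analysed here.

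Prox1, a homeodomain factor that gives dentate granule cells their identity (ENSMUSG00000010175, chromosome 1 from 190118035 to 190170714), had 30.5, 27.7 and 27.8 CPM in the control mice and 29.2, 31.9 and 30.7 CPM in the PLDP mice. PLDP mice 22 and 26 were above all control mice, and PLDP mouse 17 was below control mouse 2. The change of 6.85% had a 95% interval from -2.91% to 17.6%, and Prox1 was called in 0 of 6 fits with 1 mouse removed. Its antisense transcript Prox1os had at most 36 counts in a mouse and a log2 fold change of -0.21, and was not called. Among other transcripts on the opposite strand of one of the 10 genes, Gm28172 at Prox1 and Gm33460 at Eomes had at most 5 counts in a mouse. At Ccnd2, Gm43126 had 0 counts and 9330179D12Rik had between 17 and 39 counts per mouse.

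The lists of cell type markers, chosen with earlier results of these data known, gave values beside these results. Of all features tested, 4.91% were called higher and 3.69% lower. Of the 10 markers of cortical and hippocampal projection neurons other than Neurod2 and Neurod6, 5 were called higher and 0 lower in edgeR's test, among them Camk2a, Fezf2 and Cux2, with a median log2 fold change of 0.096. Their summed level was between 3594 and 3717 CPM in the control mice and between 3864 and 3936 in the PLDP mice, so the diets did not overlap. With 1 mouse removed, Camk2a was called in 6 of 6 fits, Fezf2 in 5 and Cux2 in 4. Of 12 markers of the hindbrain and spinal cord, 10 were called lower and 0 higher, and their summed level was between 163.5 and 177.9 CPM in the control mice and between 88.6 and 126.4 in the PLDP mice. None of the markers on these lists was at 0 in all mice. The sums of the projection neuron markers were higher and those of the hindbrain markers lower in every PLDP mouse, in the same mice in which Neurod2 was higher, and their part in its difference was not tested.

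Markers of the places where Prox1 and Neurod1 are most used did not separate the diets. Of 12 dentate granule cell markers, 0 were called in edgeR's test at an unadjusted p under 0.05, and their summed level was between 585.3 and 643.7 CPM in the control mice and between 593.3 and 620.4 in the PLDP mice. Of the 11 cerebellar granule cell markers other than Neurod1, Etv1 was called higher, and the summed level was between 2004 and 2182 CPM and between 2012 and 2259 CPM.

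The other genes of neurogenesis were counted in 6 lists. Of 21 stem cell genes, 2 were called higher and 1 lower, a share to be read against the 8.60% of all features, with a median log2 fold change of 0.027. Nes, the intermediate filament gene nestin, had 13.4, 15.6 and 13.3 CPM in the control mice and 16.4, 19.3 and 15.7 CPM in the PLDP mice, which gives a log2 fold change of 0.28 (p before adjustment = 0.00876). Prom1, which encodes the stem cell surface protein prominin, had a log2 fold change of 0.22, and Id3, an inhibitor of bHLH factors, had -0.17. The call of Nes was lost without PLDP mouse 22 and that of Prom1 without control mouse 5 or 10, while Id3 kept its call in 2 of 6 fits with 1 mouse removed and lost it with DESeq2 and with upper-quartile factors. Without PLDP mouse 17, 9 of the stem cell genes were called, 5 higher and 4 lower, in a fit that called 2350 of all features against 1598 with all mice. Without control mouse 5 or PLDP mouse 22, 1 was called.

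Of 16 tested genes of the cell cycle, among them Mki67 and Top2a, 0 were called in edgeR's test at an unadjusted p under 0.05, and DESeq2 and limma voom also called 0. The median log2 fold change was -0.045. The summed level of all 20 genes of this list, tested or not, was between 200.9 and 202.1 CPM in the control mice. It was between 195.4 and 197.9 CPM in the PLDP mice, so the sums did not overlap although no tested gene was called. Much of the sum came from Ccnd1, Cdk4 and Ccnd3, with control means of 40.7, 37.9 and 32.7 CPM. The counting error of the sums was not computed, and whether this small gap reflects cell division was not tested. Without control mouse 10, 1 gene was called higher and 1 lower, and without PLDP mouse 22, 2 were called lower.

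Of 17 tested progenitor and neuroblast genes, 1 was called, Etv1, a transcription factor also used in cerebellar granule cells. Its log2 fold change was 0.11 (unadjusted p = 0.0397 in edgeR), and it was not called by DESeq2 or in 4 of 6 fits with 1 mouse removed, those without control mouse 2 or 5 or PLDP mouse 22 or 26. The summed level of this list was between 422.7 and 429 CPM in the control mice. It was 385.1 CPM in PLDP mouse 17, below all controls, and 463.4 and 455.2 CPM in PLDP mice 22 and 26, above them. Dlx1, Sp8, Elavl2, Btg2, Tfap2c and the noncoding RNA Dlx6os1 were each lowest in PLDP mouse 17, 6 of the 17 genes, as were 4 of the 10 genes, against 21% of all features tested. Dlx6os1 had 43.7 CPM in that mouse and between 50.8 and 67.0 in the others. Without PLDP mouse 17, 3 genes of this list were called higher, and without PLDP mouse 22, 3 were called lower.

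**Figure D4:**
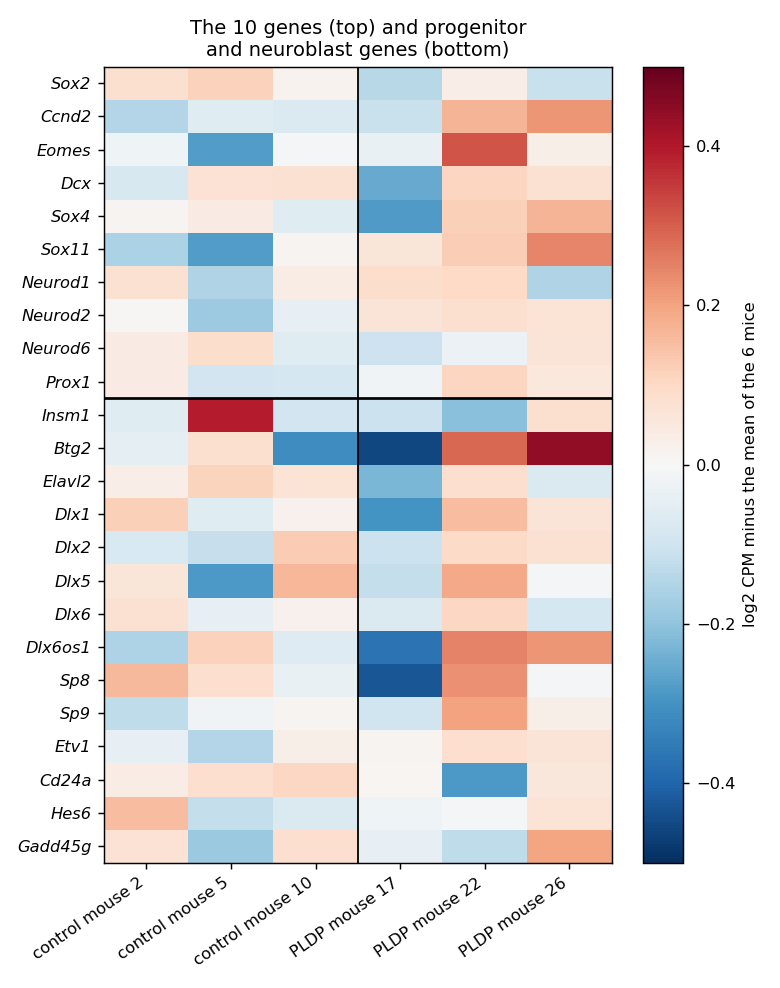
Log2 CPM of each gene minus its mean over the 6 mice, for the 10 genes (above the line) and for the 14 progenitor and neuroblast genes with a mean of at least 5 CPM (below it); red is above and blue below the mean, and colors stop at 0.5. PLDP mouse 17 is blue for Dcx, Sox4, Btg2, Dlx1, Dlx6os1 and Sp8, whereas PLDP mouse 22 is red for all of these.

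Of 19 tested genes for the cytoskeleton and adhesion of immature neurons, 1 was called higher and 1 lower. Ncam1, a neural cell adhesion molecule, changed by 0.10 on the log2 scale (p before adjustment = 0.0397), and St8sia4, an enzyme that adds polysialic acid to it, had -0.22 (unadjusted p = 0.0152), both in edgeR. St8sia4 had 17.6, 18.6 and 17.2 CPM in the control mice and 14.4, 16.2 and 15.2 CPM in the PLDP mice, with no overlap of the diets. Its call was lost without control mouse 5 or PLDP mouse 17, and that of Ncam1 without control mouse 5 or 10 or PLDP mouse 22 or 26. For the list, 5 genes were called without PLDP mouse 17 and 0 without control mouse 5. Of 26 niche signal genes, 1 was called higher, the insulin-like growth factor receptor gene Igf1r. Its log2 fold change was 0.18 (unadjusted p = 0.0049 in edgeR), and it was called in 6 of 6 fits with 1 mouse removed. Without PLDP mouse 17, 4 niche signal genes were called, and without control mouse 5 or 10 or PLDP mouse 26, 2 were.

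Of 24 tested transcription factors of neuronal differentiation, 7 were called higher and 1, Sox12, lower. Of all features tested, 4.91% were called higher and 3.69% lower. None of the 24 passed an adjusted p of 0.05 in edgeR's test, and the list was chosen with earlier results of these data known. The median log2 fold change was 0.030. Nfia, a nuclear factor of glial and neuronal development, had 41.4, 41.9 and 42.8 CPM in the control mice and 46.3, 50.7 and 51.3 CPM in the PLDP mice, a log2 fold change of 0.23 (adjusted p = 0.19 in edgeR). Tcf4, which encodes the E-protein partner of Neurod factors, rose from 235.3 to 262.5 CPM on average, a log2 fold change of 0.16 (adjusted p = 0.319 from this test). Bcl11b, a factor of cortical and striatal projection neurons, had a log2 fold change of 0.16 (adjusted p = 0.406 from this test). Tcf4 and Bcl11b were not called without PLDP mouse 26 (unadjusted p = 0.0506 and 0.054). The list had 5 called genes without control mouse 5 and 4 without PLDP mouse 26. The markers of projection neurons, some of which are also on this list, had higher sums and those of the hindbrain lower sums in the same PLDP mice, as given above, and their part in these calls was not tested.

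**Figure D5:**
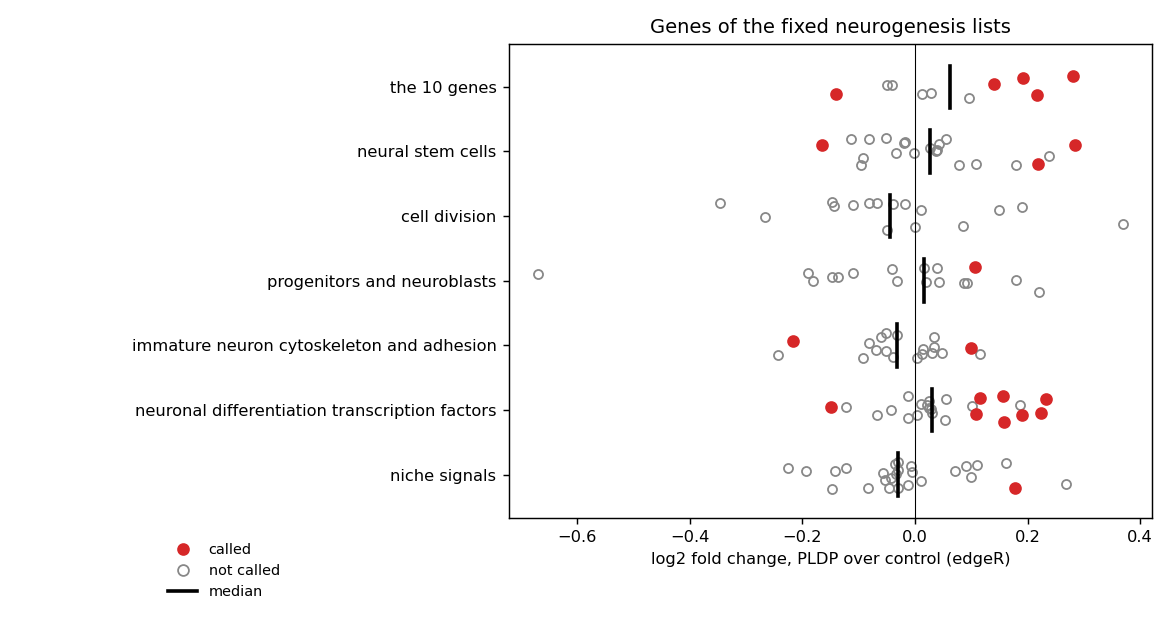
Log2 fold change (PLDP over control) of the 10 genes and of the tested genes of 6 neurogenesis lists; filled red points were called at an unadjusted p under 0.05, open points were not, and black bars are medians. The list medians lie between -0.045 and 0.030, and 7 of the transcription factors are called higher.

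Patterns over the 6 mice were described by Pearson correlations of log2 CPM with the tested genes of the lists. The points share libraries and diets, and 256 genes were compared with each of the 10 genes that is on no list, so high values arise in this search. Sox11 was most like Sox5 (r = 0.97), Bcl11b (0.97) and Tnr (0.96). Ccnd2 was most like Dclk1 (r = 0.98), a doublecortin-like kinase gene of immature and mature neurons, followed by Emx2 (0.97) and Sox1 (0.94). Eomes was most like Reln (0.89), Etv1 (0.87) and Zic1 (0.87), and Neurod2 was most like Gjb6 (0.94), Etv1 (0.88) and Flt1 (0.87). Among the genes most like Sox2 were St8sia4 (0.96) and Synpr (0.92). Dcx was most like Clic6 (0.98), Myt1l (0.98) and Kl (0.96), and Clic6 and Kl are choroid plexus markers. The summed level of the ependyma and choroid plexus markers was between 753.7 and 809.3 CPM in the control mice, 596.8 in PLDP mouse 17, 749.8 in PLDP mouse 22 and 693.4 in PLDP mouse 26, so the diets did not overlap, and its part in the Dcx values was not tested. Among the 10 genes themselves, Dcx and Sox4 (0.84), Sox11 and Neurod2 (0.84) and Eomes and Prox1 (0.81) were most alike, and Sox2 and Sox11 ran in opposite directions (-0.78).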

How the data were processed

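RNA-seq libraries were made with a strand-specific mRNA kit, 1 per brain, for 3 mice of each diet. For each library the authors deposited whole-number read counts per gene, without normalization. The submitters' processing notes name cutadapt 2.9, HISAT2 2.2.0, featureCounts 2.6.0 and DESeq2 1.6.3 and the builds GRCh38 and GRCm38. How strand and shared reads were handled is not given in the sources used here. Diets were taken from the sample labels. These give no batch, and nothing beyond the mouse numbers separates the replicates of a diet. Symbols and coordinates were taken by Ensembl identifier from GENCODE M21 (GRCm38), in which 54777 of 55034 identifiers were found. A further 5320 numbered features without an identifier stayed in the fit.

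Differences between the diets were tested by the quasi-likelihood method of edgeR 4.0.16 (R 4.3.3), with no covariate. Before that, filterByExpr removed features with low counts (minimum count 10, minimum total 15) and TMM factors were computed. The threshold for a call was an unadjusted p of 0.05. The Benjamini-Hochberg adjustment covered all features. CPM are counts relative to the library size after TMM scaling, and intervals are 95% intervals of the fit. Alternatives were no filter, at least 10 counts in every mouse, other scaling factors, DESeq2 1.42.0, limma 3.58.1 voom and leaving out each mouse. In simulated counts with 200 of 18580 features changed 2-fold, 165 were recovered at an adjusted p under 0.05, with 8 false calls. The largest absolute log2 fold change of the 10 genes was 0.28, so this recovery does not describe changes of that size. Correlations used log2 of CPM plus 0.01.

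The 10 genes and the lists were chosen with earlier results of these data known. Named by rule were up to 3 called genes per direction of each neurogenesis list, by smallest p, at most 3 genes of a marker list where it moved with one of the 10 genes, the annotated transcripts that overlap one of them, and the 3 list genes most like each called gene and Dcx, of which 1 is not reported here. Other genes named were chosen after their values were seen. Protein sequences, a promoter window of Ccnd2 and 1 gene of the immature neuron list were not analysed here. Figures were drawn with matplotlib 3.10.9 in Python 3.11.15.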

Additional observations from a re-analysis of the deposited data

How the results depend on the processing

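The number of the 10 genes called was 5 with each filter and each scaling and with limma voom, 3 with DESeq2, and between 2 (without control mouse 5) and 5 when 1 mouse was left out. DESeq2 called 926 of all features against 1598 in the main analysis. Leaving out 1 mouse gave from 1 to 9 called stem cell genes, from 0 to 2 cell cycle genes, from 0 to 3 progenitor and neuroblast genes, from 0 to 5 genes of the immature neuron cytoskeleton and adhesion, from 4 to 9 differentiation factors and from 1 to 4 niche signal genes. Progenitor and neuroblast genes called were 3 with no filter, 2 with library size only or limma voom, and 0 with DESeq2, and niche signal genes were 2 with no filter. The median log2 fold change of the 10 genes was between 0.024 (without PLDP mouse 22) and 0.137 (without PLDP mouse 17) when 1 mouse was left out. The log2 fold change of Sox4 was -0.0014 with limma voom and between -0.07 and 0.14 when 1 mouse was left out, that of Dcx between -0.11 and 0.07 and that of Neurod1 between -0.04 and 0.10. The cause of these changes was not tested. Sox11 had the largest counting error of the 10 genes, 5.36% to 5.93% of the count of 1 mouse, with at most 385 counts per mouse. The number of mice, 3 per diet, limited every comparison.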

Other observations

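In the ependyma and choroid plexus list, 2 of 9 tested genes were called lower, Ttr and Folr1. The endothelial list had 2 of 10 genes called higher, Pecam1 and Flt1, and the microglial list had 1 of 10 called lower, P2ry12. Folr1 was not called by DESeq2 or limma voom or without control mouse 2 or 5 or PLDP mouse 17. P2ry12 was not called by DESeq2 or without control mouse 5 or PLDP mouse 17 or 22, and Flt1 was not called without control mouse 5. Of 10 striatal and 10 thalamic markers, 0 were called in edgeR's test at an unadjusted p under 0.05.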
